A study of Oryza sativa with 4 samples.

Results

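*OsNAC5* (Os11g0184900), *OsNAC6* (Os01g0884300), *OsNAC9* (Os03g0815100) and *OsNAC10* (Os11g0126900) are rice genes of the stress-responsive NAC (SNAC) group. They were taken by gene ID, as 4 of the 31414 genes in the deposited table. They had 5 of its 37972 transcripts, and 4 of these transcripts passed the filter on low values, 1 for each gene. The pairing of names with IDs is not from the paper. The deposited descriptions partly carry such names: the transcripts of Os11g0184900 are described as similar to OsNAC5 and to NAC-domain protein 5-7, Os11g0126900 as a NAC-domain protein of drought tolerance, and Os01g0884300 only by its NAM domain. The description of Os03g0815100 reads as similar to OsNAC6, although the gene is treated here as *OsNAC9*.

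RNA-sequencing covered leaves of 2 OsNAC14OX and 2 non-transgenic (NT) rice libraries. OsNAC14OX plants carried *OsNAC14*, a NAC gene outside the SNAC group, under the *PGD1* promoter, which is active throughout the plant, in the japonica cultivar Nakdong. The sequenced transgenic plants were of the T4 generation of line 11, so a single transgenic line stands for the genotype. NT plants were Nakdong without the transgene. All plants grew in soil without drought, and the labels give their age both as 20 days and as 2 weeks, and the cultivar in a spelling of Nipponbare. The number of plants behind each library was not given, so p-values measure the spread between libraries only.

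NAC proteins are plant-specific transcription factors that bind DNA through a conserved N-terminal domain named after NAM, ATAF and CUC. Members of the SNAC group are switched on by drought, salt or abscisic acid (ABA) in rice. Rice plants that overexpress *OsNAC5*, *OsNAC9* or *OsNAC10* in roots form thicker roots, and *OsNAC6* is known to act on root number and on nicotianamine synthesis. Their transcript levels were compared here between plants with and without extra *OsNAC14*, grown without drought.

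The transgene was checked before the SNAC genes were compared. *OsNAC14* (Os01g0675800) had 16.4 and 16.3 FPKM in OsNAC14OX leaves, against 3.16 and 3.70 FPKM in NT leaves. FPKM are reads scaled for transcript length and for the mapped reads of the library. The OsNAC14OX replicates thus carried almost equal amounts of *OsNAC14* transcript, and its log2 fold change was 1.99 ± 0.11 (SE; limma, adjusted p = 0.0204).

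The labelled tissue was checked with marker genes. All 5 leaf markers, which encode Rubisco small subunits, chlorophyll-binding proteins and a chloroplast aldolase, exceeded 1 FPKM in every library, and their sums were 13259 and 14735 FPKM in OsNAC14OX and 9626 and 9066 FPKM in NT. All 4 root markers also exceeded 1 FPKM in every library, with sums of 299.6 and 569 FPKM in OsNAC14OX and 617 and 611 FPKM in NT. *RCc3* (Os02g0662000), a gene known for root expression in rice, had 182 and 369 FPKM in OsNAC14OX and 391.6 and 389.7 FPKM in NT, and the silicon influx transporter gene Os02g0745100 had 86.3 and 146 FPKM in OsNAC14OX and 166 and 166 FPKM in NT. The root markers were thus lowest in OsNAC14OX replicate 1. A shoot apex marker, the homeobox gene Os03g0727000, had 3.69 and 3.97 FPKM in OsNAC14OX and 4.87 and 4.62 FPKM in NT. Whether the libraries held leaf tissue alone was therefore not settled. The part of these markers in the results on the SNAC genes was not tested. In whole leaves, fewer cells of a type cannot be told apart from less RNA per cell. The NT libraries carry the mark 2012 in their names and the OsNAC14OX libraries do not, and if it is a year of growth or sequencing, it cannot be told apart from the genotype.

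All 4 SNAC genes were transcribed in these libraries, labelled as leaves and grown without drought, at very different levels. *OsNAC6* was the most highly expressed in 3 of 4 libraries, with 102.4 and 57.9 FPKM in OsNAC14OX and 67.5 and 77.2 FPKM in NT. It stood between the 92.5 and 96.3 percentiles of all genes of a library. *OsNAC10* was the lowest of the group in every library, with 2.33 and 4.03 FPKM in OsNAC14OX and 4.09 and 3.41 FPKM in NT, between the 31.2 and 40.7 percentiles.

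The places of *OsNAC9* and *OsNAC5* in this order depended on the library. *OsNAC9* had 110.0 and 10.3 FPKM in OsNAC14OX and 36.0 and 45.5 FPKM in NT, which spans the 60.2 to 96.6 percentiles. *OsNAC5*, summed over its transcripts, had 9.42 and 13.3 FPKM in OsNAC14OX and 29.2 and 27.5 FPKM in NT, between the 58.2 and 82.8 percentiles. From high to low, the order was *OsNAC9*, *OsNAC6*, *OsNAC5*, *OsNAC10* in OsNAC14OX replicate 1, and *OsNAC6*, *OsNAC5*, *OsNAC9*, *OsNAC10* in OsNAC14OX replicate 2. In both NT libraries it was *OsNAC6*, *OsNAC9*, *OsNAC5*, *OsNAC10*. Over the 4 libraries, the ranges of *OsNAC6* and *OsNAC9* overlapped, as did those of *OsNAC9* and *OsNAC5*, whereas those of *OsNAC5* and *OsNAC10* did not.

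**Figure D1:**
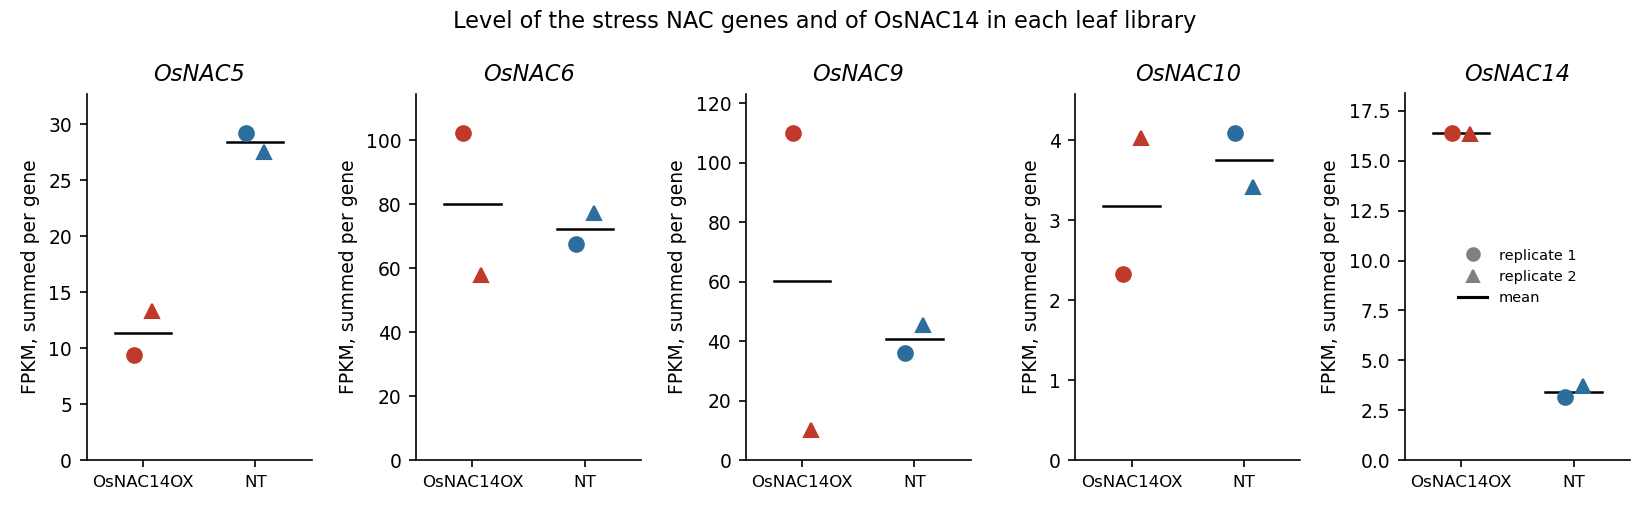
FPKM summed per gene (y axes, each from 0) of the 4 SNAC genes and of OsNAC14 in OsNAC14OX and NT leaf libraries; circles are replicate 1, triangles replicate 2 and bars the mean of 2 libraries. OsNAC5 is lower in both OsNAC14OX libraries than in both NT libraries, while the OsNAC14OX libraries of OsNAC9 stand on either side of NT, at 110.0 and 10.3 FPKM.

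No SNAC transcript met the criteria for differential expression between OsNAC14OX and NT. Transcripts were called where limma gave an adjusted p below 0.05 together with a change of 2-fold or more, and 0 of the 4 tested members passed, beside 168 of 30251 tested transcripts in the whole table (0.555%). At an unadjusted p under 0.05, 1 of the 4 members passed, compared with 9.40% of all tested transcripts. With 2 libraries a group, an exact permutation test (two-sided) cannot go below p = 0.333, so the limma fit over all transcripts was the test used.

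*OsNAC5* was the member with the lowest p-value. Its main transcript, Os11t0184900-02, spans positions 4299277 to 4301783 of chromosome 11 (IRGSP-1.0) and had 9.35 and 13.3 FPKM in OsNAC14OX, against 29.1 and 27.3 FPKM in NT. The means were 11.3 ± 2.77 FPKM in OsNAC14OX and 28.2 ± 1.27 FPKM in NT (SD, n = 2 each). The groups did not overlap, as was the case for 1 of the 4 members and for 40.9% of all tested transcripts. The log2 fold change was -1.23 ± 0.19 (SE; 95% interval -1.76 to -0.70), on the scale of log2(FPKM + 1). *OsNAC5* ranked 478 of 30251 by p-value, and its adjusted p of 0.183 (limma) missed the threshold. OsNAC14OX replicate 1, the lower of the OsNAC14OX libraries for *OsNAC5*, was also the lowest for the root markers given above. It was the lowest library for 38.4% of all tested genes. The root marker sum of OsNAC14OX replicate 2 was near NT. The leaf marker sums of both OsNAC14OX libraries were above NT, but the single leaf markers differed. A Rubisco small subunit transcript (Os12t0291100-01) had 5775 and 6051 FPKM in OsNAC14OX and 3807 and 3431 FPKM in NT. The chlorophyll-binding gene Os09g0346500 had 2428 and 3210 FPKM in OsNAC14OX and 2571 and 2632 FPKM in NT. OsNAC14OX replicate 1 was thus below NT for that gene. A part of tissue content in the *OsNAC5* values was not tested.

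The call for *OsNAC5* depended on the library. Without OsNAC14OX replicate 2, the log2 fold change was -1.47 with an adjusted p of 0.0333 (limma), which meets the criteria. Without OsNAC14OX replicate 1 it was -0.99 (limma, adjusted p = 0.102). In a fit with 1 library left in a group, that library is assumed to vary like the others.

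A shorter *OsNAC5* transcript, Os11t0184900-01 (chromosome 11, 4301019 to 4301784), was listed at very low levels. It had 0.0674 and 0.0788 FPKM in OsNAC14OX and 0.117 and 0.197 FPKM in NT, and was removed by the filter. It made up between 0.402% and 0.716% of the FPKM of the gene, so *OsNAC5* was measured almost wholly through its longer transcript in both genotypes.

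Of the genes around *OsNAC5*, some differed between the genotypes. Among the 5 tested genes on either side, 2 of 10 were called, both higher in OsNAC14OX, beside 0.629% of all tested genes. Os11g0182900, an ankyrin repeat gene, had 13.7 and 9.88 FPKM in OsNAC14OX and 0.341 and 0.118 FPKM in NT (log2 fold change 3.38, limma, adjusted p = 0.0244). Os11g0185800, a conserved hypothetical gene, had 3.92 and 3.35 FPKM in OsNAC14OX and 0.335 and 0.354 FPKM in NT (log2 fold change 1.81, limma, adjusted p = 0.0328). Both went in the opposite direction to the fitted value of *OsNAC5*. Os11g0184100, which was not called, went in the same direction as *OsNAC5*. It had 1.04 and 1.21 FPKM in OsNAC14OX and 3.62 and 3.85 FPKM in NT (log2 fold change -1.12, limma, adjusted p = 0.0731). The log2 fold changes of the 10 neighbours ran from -1.12 to 3.38, with a median of 0.15. None of the 10 neighbours of *OsNAC6*, of *OsNAC9* or of *OsNAC10* was called.

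*OsNAC9* was the member whose replicates differed most. Its transcript, Os03t0815100-01 (chromosome 3, 34166100 to 34167521), had 110.0 and 10.3 FPKM in OsNAC14OX, against 36.0 and 45.5 FPKM in NT. OsNAC14OX replicate 1 was thus above both NT libraries and OsNAC14OX replicate 2 below both, with a ratio of 10.7 between the replicates. The log2 fold change was -0.20 ± 1.16 (SE; 95% interval -3.39 to 2.98; limma, adjusted p = 0.972), an interval that holds large changes in either direction. It was 1.43 without OsNAC14OX replicate 2 (limma, adjusted p = 0.0554) and -1.84 without OsNAC14OX replicate 1 (limma, adjusted p = 0.0874). The sign of the *OsNAC9* difference was therefore set by which OsNAC14OX library was used.

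*OsNAC6* showed the same order of libraries with a smaller spread. Its transcript, Os01t0884300-01, lies on chromosome 1 from 38398996 to 38401481. OsNAC14OX replicate 1 was the highest of the 4 libraries and OsNAC14OX replicate 2 the lowest, as for *OsNAC9*. The log2 fold change was 0.15 ± 0.29 (SE; limma, adjusted p = 0.907), and it ran from -0.25 without OsNAC14OX replicate 1 to 0.54 without OsNAC14OX replicate 2. A hypothetical gene, Os01g0884350, lies within the *OsNAC6* locus (38400848 to 38401417). That gene had 34.7 and 24.2 FPKM in OsNAC14OX and 20.5 and 26.4 FPKM in NT. The labels describe a strand-specific library and the paper a standard TruSeq kit. Whether the reads of the 2 genes were separated by strand is therefore not settled.

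*OsNAC10* (Os11t0126900-01, chromosome 11, 1233932 to 1235977) had its lowest value in OsNAC14OX replicate 1, as did 38.4% of all tested genes. Its groups overlapped. The log2 fold change was -0.19 ± 0.25 (SE; limma, adjusted p = 0.853), and it was 0.10 without OsNAC14OX replicate 1. A closely similar copy on chromosome 12, Os12g0123700, had 1.35 and 2.31 FPKM in OsNAC14OX and 2.49 and 2.69 FPKM in NT, with a log2 fold change of -0.32 (limma, adjusted p = 0.716). Reads that match both copies may have been shared, so the *OsNAC10* values are uncertain to that extent.

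**Figure D2:**
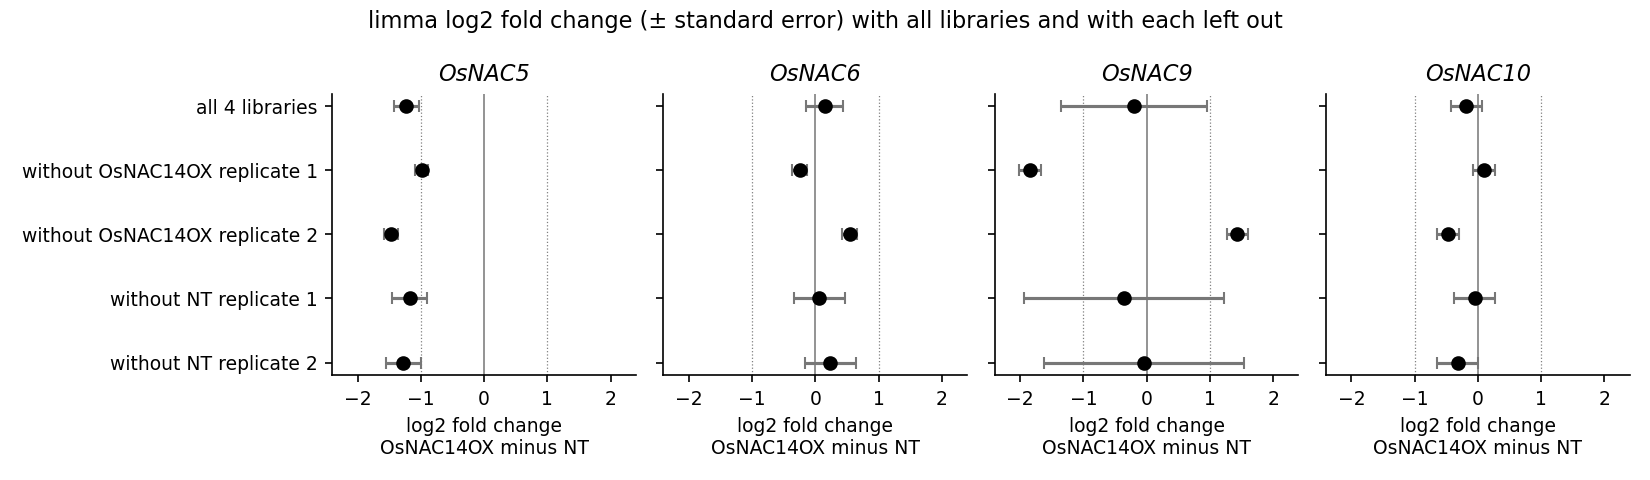
limma log2 fold change of each SNAC gene, OsNAC14OX minus NT (x axes, points with standard error), fitted with all 4 libraries and with each library left out (rows); dotted lines mark a 2-fold change. OsNAC5 stays below 0 in every row, whereas OsNAC9 is at -1.84 without OsNAC14OX replicate 1 and at 1.43 without OsNAC14OX replicate 2.

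The difference between the OsNAC14OX replicates was then compared with that of all transcripts. On the normalized log2 scale, OsNAC14OX replicate 1 minus replicate 2 was 3.27 for *OsNAC9*, 0.79 for *OsNAC6*, -0.48 for *OsNAC5* and -0.57 for *OsNAC10*. A difference at least as large in size was found in 0.225% of tested transcripts for *OsNAC9*, 7.24% for *OsNAC6*, 15.8% for *OsNAC5* and 12.1% for *OsNAC10*. *OsNAC9* ranked 68 of 30251 by this measure.

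The NT replicates were much closer for *OsNAC9* and *OsNAC6*. NT replicate 1 minus replicate 2 was -0.32 for *OsNAC9* and -0.18 for *OsNAC6*, and 0.10 for *OsNAC5* and 0.27 for *OsNAC10*. Where replicates are called 2-fold apart here and below, the difference is 1 in normalized log2(FPKM + 1), which is not a plain ratio of FPKM. Of the members, 1 of 4 was at least 2-fold higher in OsNAC14OX replicate 1 than in replicate 2 (*OsNAC9*), compared with 891 of 25760 tested genes (3.46%). None was at least 2-fold lower, compared with 229 genes (0.889%). Over all genes the median size of the replicate difference was 0.166 in OsNAC14OX and 0.107 in NT.

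**Figure D3:**
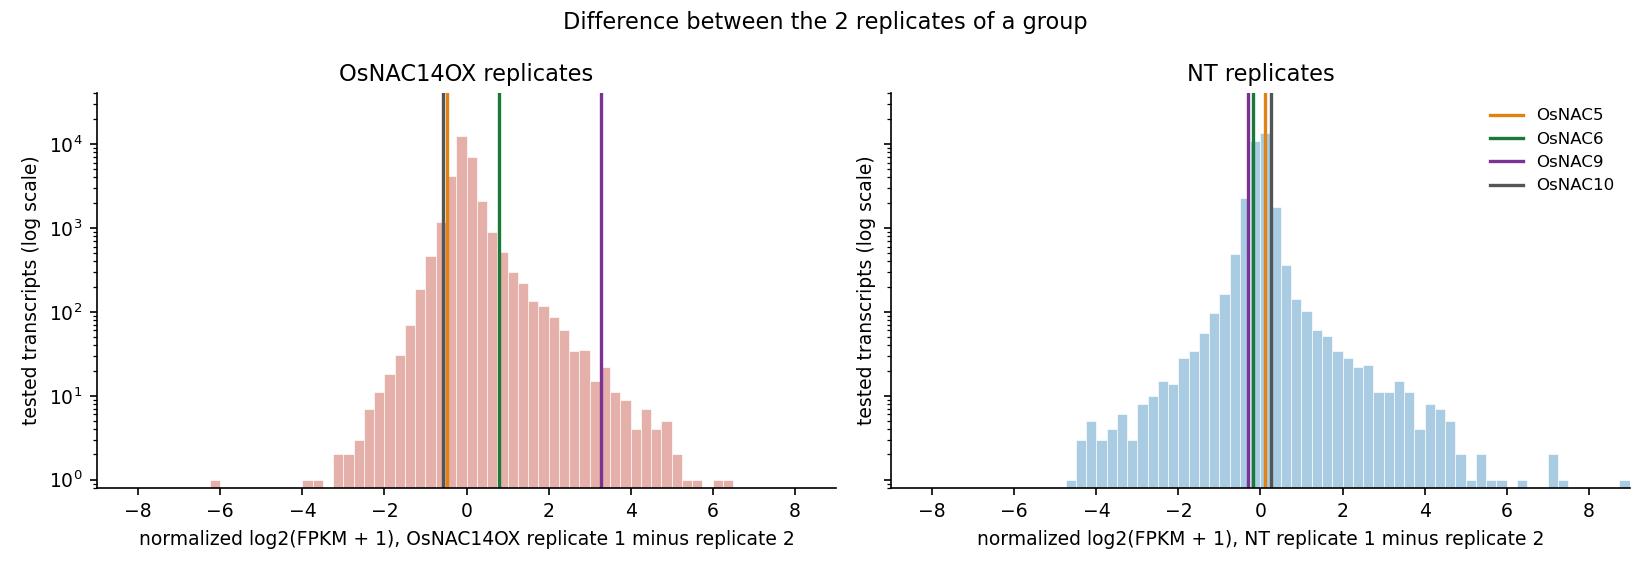
Numbers of tested transcripts (y axis, log scale) by the difference between replicate 1 and replicate 2 of normalized log2(FPKM + 1) (x axis), for OsNAC14OX (left) and NT (right), with vertical lines at the SNAC genes. OsNAC9 lies far in the right tail among the OsNAC14OX replicates, at 3.27, and at -0.32 among the NT replicates.

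Genes that respond to water deficit and cold were examined for the inversion between the OsNAC14OX libraries seen in *OsNAC9*. Of 14 dehydration marker genes, 12 were tested, 0 were called in either direction, and their median log2 fold change was 0.10 beside 0.00 over all genes. Yet 5 of the 12 (41.7%) were at least 2-fold higher in OsNAC14OX replicate 1 than in replicate 2 on the normalized log2 scale. That stands beside 3.46% of all genes, and 0 were 2-fold lower. In 6 of the 12, OsNAC14OX replicate 1 was the highest library and OsNAC14OX replicate 2 the lowest, as in *OsNAC6* and *OsNAC9*, beside 8.74% of all genes. These 5 genes are named because of that difference. This list and the others were chosen with earlier results of these data known, and the difference sets 1 library against 1. The counts and the naming are thus a description.

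The genes of the DREB1 transcription factors, which activate cold and dehydration genes through the DRE element, differed most. *DREB1B* (Os09g0522000) had 131 and 4.33 FPKM in OsNAC14OX, against 59.1 and 63.1 FPKM in NT. *DREB1A* (Os09g0522200) had 58.8 and 4.02 FPKM in OsNAC14OX and 18.8 and 28.6 FPKM in NT. *DREB1C* (Os06g0127100) had 30.1 and 0.360 FPKM in OsNAC14OX and 4.90 and 8.79 FPKM in NT. In each case, as for *OsNAC9*, the OsNAC14OX libraries stood on opposite sides of NT.

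A dehydrin gene (Os02g0669100), whose product protects cells that lose water, had 261 and 71.4 FPKM in OsNAC14OX and 88.7 and 93.8 FPKM in NT. A Clp protease subunit gene (Os02g0526400) had 51.5 and 20.5 FPKM in OsNAC14OX and 21.9 and 20.9 FPKM in NT, so that only replicate 1 stood apart there. The lowest p-value of the list belonged to a late embryogenesis abundant protein gene, Os01g0705200, with 4.18 and 3.17 FPKM in OsNAC14OX and 0.392 and 0.553 FPKM in NT (log2 fold change 1.68, limma, adjusted p = 0.0673). That gene was higher in both OsNAC14OX libraries and did not share the *OsNAC9* pattern. The salt-induced *SalT* gene (Os01g0348900) had 576.0 and 325 FPKM in OsNAC14OX and 267 and 281 FPKM in NT (log2 fold change 0.75, limma, adjusted p = 0.631).

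Other NAC genes gave the same picture in part. Of 8 further stress-related NAC genes, all were tested, 0 were called, and the median log2 fold change was -0.01. In 4 of the 8, OsNAC14OX replicate 1 was the highest library and OsNAC14OX replicate 2 the lowest, beside 8.74% of all genes. At least 2-fold higher in replicate 1 were 2 of the 8 (25%), beside 3.46% of all genes. *OsNAC3* (Os07g0225300) had 24.0 and 7.997 FPKM in OsNAC14OX and 17.6 and 19.8 FPKM in NT, and Os03g0133000 had 14.3 and 3.39 FPKM in OsNAC14OX and 5.87 and 5.60 FPKM in NT. The 2 with the lowest p-values were Os11g0127600, with a log2 fold change of 0.32 (limma, adjusted p = 0.694), and the chromosome 12 copy of *OsNAC10* given above.

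Over the NAC family as a whole, 47 of 62 genes with such a description were tested and 0 were called. At an unadjusted p under 0.05, 5 of the 47 passed through at least 1 transcript. The share of all tested transcripts was 9.40%, which counts transcripts and not genes. The median log2 fold change was 0.10. OsNAC14OX replicate 1 was at least 2-fold higher than replicate 2 in 6 genes (12.8%), beside 3.46% of all genes. It was at least 2-fold lower in 1, beside 0.889% of all genes. In 11 of the 47, OsNAC14OX replicate 1 was the highest library and OsNAC14OX replicate 2 the lowest, beside 8.74% of all genes. The lowest p-value belonged to Os01g0339500, with 0.753 and 0.905 FPKM in OsNAC14OX and 2.42 and 3.35 FPKM in NT (log2 fold change -1.05, limma, adjusted p = 0.160). Os03g0327800, described as NAP, a NAC factor known in rice for leaf senescence, had 10.4 and 9.12 FPKM in OsNAC14OX and 6.09 and 6.65 FPKM in NT (log2 fold change 0.57, limma, adjusted p = 0.280).

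ABA is the hormone through which much of SNAC induction runs. Of 11 genes of ABA synthesis and breakdown, 9 were tested and 0 called. Their median difference between the OsNAC14OX replicates was -0.09, beside -0.07 over all genes. In 2 of the 9, OsNAC14OX replicate 1 was the highest library and OsNAC14OX replicate 2 the lowest, beside 8.74% of all genes. The share at least 2-fold higher in OsNAC14OX replicate 1 was 11.1%, beside 3.46% of all genes. The 1 tested gene at least 2-fold higher in OsNAC14OX replicate 1 than in replicate 2 was an ABA 8'-hydroxylase gene (Os02g0703600), whose product breaks down ABA, with 8.39 and 0.797 FPKM in OsNAC14OX and 4.87 and 5.28 FPKM in NT. Os07g0154100, a gene of the list that the filter removed, had 3.89 and 0.138 FPKM in OsNAC14OX and 0.551 and 0.476 FPKM in NT. The lowest p-values of this list were those of Os12g0617400, described as Viviparous-14, with a log2 fold change of 0.52 (limma, adjusted p = 0.381), and of Os12g0435200, described as a zeaxanthin cleavage oxygenase, with -0.37 (limma, adjusted p = 0.502).

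Of 17 genes of ABA signalling kinases and bZIP factors, 16 were tested and 0 called, with a median replicate difference of -0.18. In 4 of the 16, OsNAC14OX replicate 1 was the highest library and OsNAC14OX replicate 2 the lowest, beside 8.74% of all genes. The share at least 2-fold higher in OsNAC14OX replicate 1 was 12.5%, beside 3.46% of all genes. The 2 tested genes that were at least 2-fold higher in OsNAC14OX replicate 1 than in replicate 2 were *SAPK2* (Os07g0622000) and an *AREB2*-like gene (Os02g0766700). *SAPK2*, which encodes a kinase activated by osmotic stress, had 178 and 73.4 FPKM in OsNAC14OX and 91.6 and 97.1 FPKM in NT. The *AREB2*-like gene had 50.02 and 19.1 FPKM in OsNAC14OX and 22.7 and 23.5 FPKM in NT. The lowest p-values were those of the kinase genes *SAPK4* (Os01g0869900), with a log2 fold change of -0.30 (limma, adjusted p = 0.474), and *SAPK10* (Os03g0610900), with -0.27 (limma, adjusted p = 0.573).

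**Figure D4:**
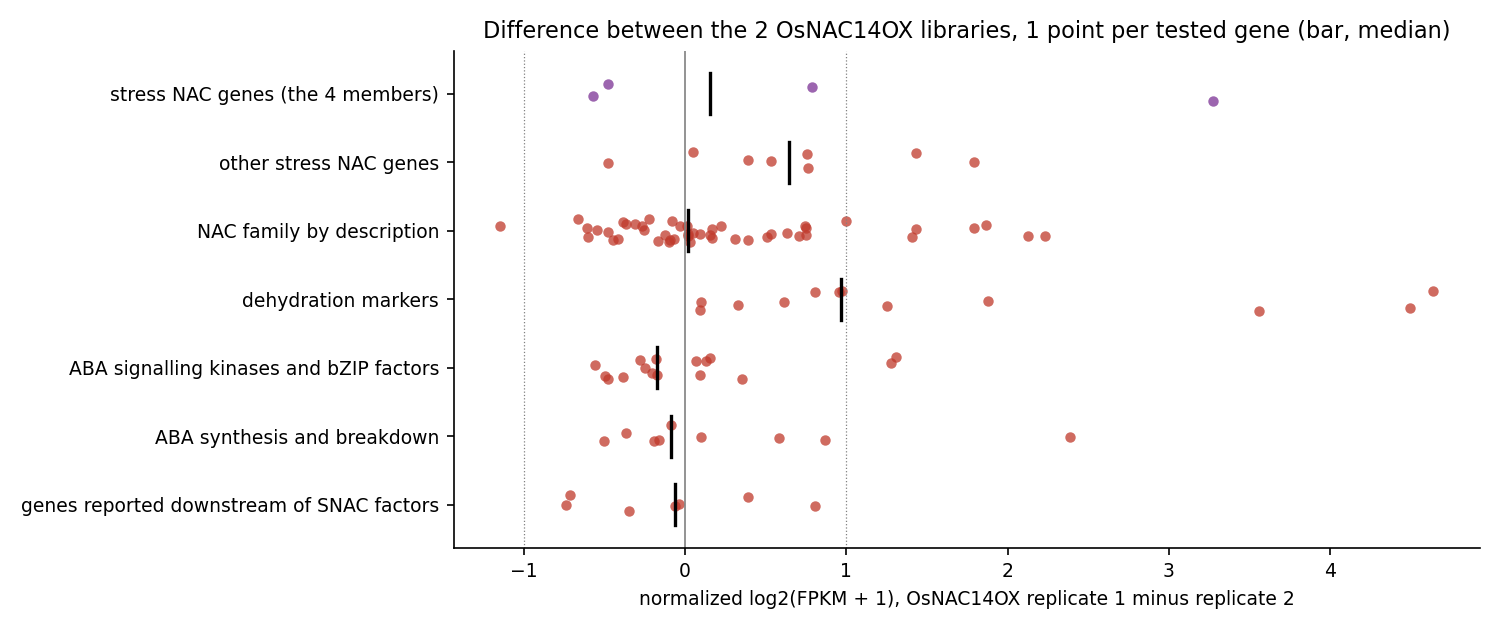
Normalized log2(FPKM + 1) of OsNAC14OX replicate 1 minus replicate 2 (x axis) for each tested gene of the lists (rows); bars are medians, and dotted lines mark a 2-fold difference. The 12 dehydration marker genes have a median of 0.97 and the 8 other stress NAC genes one of 0.65. The medians of the ABA lists are -0.09 and -0.18, although 1 of 9 and 2 of 16 of their genes lie beyond the right dotted line.

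Genes known from earlier work to lie downstream of SNAC factors were also examined. All 7 were tested, 0 were called, their median log2 fold change was 0.10, and 0 were at least 2-fold apart between the OsNAC14OX replicates. At an unadjusted p under 0.05, 4 of the 7 passed through at least 1 transcript, in both directions, beside 9.40% of all tested transcripts. A gene with several transcripts has more ways to pass, so the count and the share are not like for like. Os05g0135700 passed only through its lower transcript, Os05t0135700-02 (limma, unadjusted p = 0.0405). Nicotianamine synthase genes make a chelator of iron and zinc, and 2 of them were the genes of this list with the lowest p-values. Nicotianamine synthase 2 (Os03g0307200) had 24.7 and 40.3 FPKM in OsNAC14OX, against 144 and 160 FPKM in NT (log2 fold change -2.17, limma, adjusted p = 0.116). *OsNAS1* (Os03g0307300) had 26.0 and 42.0 FPKM in OsNAC14OX, against 134 and 147 FPKM in NT (log2 fold change -1.996, limma, adjusted p = 0.130). The groups did not overlap for either gene, as for 40.9% of all tested transcripts. OsNAC14OX replicate 1 was the lowest library for both, as for *OsNAC5* and for 38.4% of all tested genes. The third nicotianamine synthase gene of the list, *OsNAS3* (Os07g0689600), stood the other way, with 8.05 and 10.5 FPKM in OsNAC14OX and 5.51 and 5.42 FPKM in NT (log2 fold change 0.68, limma, adjusted p = 0.352).

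The genes most like each member over the 4 libraries were sought by the distance between centred log2 values, among genes that varied at least as much. For *OsNAC5*, 937 genes qualified, and the 3 nearest were a type 1 metallothionein gene (Os11g0704500; distance 0.107), a ribonuclease T2 gene (Os09g0537700; 0.127) and a non-coding transcript (Os12g0226066; 0.137). The metallothionein gene, whose product binds metal ions, had 377 and 584 FPKM in OsNAC14OX and 1118 and 1117 FPKM in NT. A hypothetical gene, Os11g0704525, overlaps the metallothionein gene and had 456 and 702 FPKM in OsNAC14OX and 612 and 683 FPKM in NT, and Os12g0226066 overlaps an alcohol dehydrogenase gene, Os12g0225900, so the values of both may hold shared reads. The ribonuclease gene, with no overlap, had 52.6 and 78.6 FPKM in OsNAC14OX and 165.5 and 164.6 FPKM in NT.

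For *OsNAC9*, 230 genes qualified. The nearest, Os09g0522500 (distance 0.165), had 70.9 and 5.47 FPKM in OsNAC14OX and 19.4 and 26.9 FPKM in NT. It lies inside *DREB1A* (chromosome 9, 20403413 to 20404332), so the values of both may hold shared reads. The next were a RING/FYVE/PHD zinc finger gene, Os02g0682300 (distance 0.190), with 48.2 and 3.46 FPKM in OsNAC14OX and 13.6 and 16.0 FPKM in NT, and a serine/threonine kinase gene, Os01g0699500 (distance 0.270). The nearest genes of *OsNAC6* were Os06g0610000, Os01g0743200 and Os02g0674050, which overlaps Os02g0673700 (3671 qualified), and those of *OsNAC10* were Os07g0418600, Os02g0456800 and Os08g0174750 (5109 qualified), at distances between 0.0240 and 0.0476. The likeness rests on 4 libraries and is a description.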

How the data were processed

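The authors trimmed single-end reads and mapped them with TopHat to IRGSP-1.0 with RAP-DB gene models. How the FPKM were computed is not stated. The labels describe a strand-specific library and the paper a standard TruSeq kit. The authors deposited FPKM per transcript, and log2 values made from them as log2(FPKM + 1) and quantile normalized over all libraries of the table. Of these, 4 columns of values belong to libraries outside the series and were not used. The deposited transcript lengths and other annotation were used as given, with 1 added to each start, since starts were counted from 0. Columns of the authors' own comparisons (fold, p-value) and their enrichment tables were not used.

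Groups were taken from the sample labels. The deposited log2 values were fitted with limma 3.58.1 in R 4.3.3 (lmFit, eBayes with trend, two-sided) over 30251 transcripts of 25760 genes with at least 1 FPKM in at least 2 of 4 libraries. P-values were adjusted by Benjamini-Hochberg over all of them, and a gene counted as called through any transcript. A gene with several transcripts was described by that with the highest mean FPKM. The fit was tested on simulated data. Depth is unknown, since FPKM keep no counts, and no counting interval is given. Summed FPKM were 735318 and 748368 in OsNAC14OX and 751619 and 765959 in NT.

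The members and lists were chosen with earlier results of these data known. Named were all member transcripts, *OsNAC14*, the called genes of each list or else the 2 with the smallest p, and the 3 genes most like each member. Genes named for their OsNAC14OX replicate difference, the neighbours and the overlapping genes were chosen after their values were seen, except that the 5 tested neighbours on each side were set by position. Alternatives were other pseudocounts, filters and normalizations, gene sums, no variance trend, a replicate block and each library left out. Promoter and protein sequences were not analysed here. Summaries and figures used Python 3.11.15 with matplotlib 3.10.9, numpy 2.4.6, pandas 2.3.3 and scipy 1.17.1.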

Additional observations from a re-analysis of the deposited data

How the results depend on the processing

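The log2 fold change of *OsNAC5* kept its direction under all alternatives and passed the criteria under 1 of them: leaving out each library gave -1.47 to -0.99, and it was -1.47 (limma, adjusted p = 0.0333) without OsNAC14OX replicate 2. Leaving out each library gave -0.25 to 0.54 for *OsNAC6*, -1.84 to 1.43 for *OsNAC9* and -0.47 to 0.10 for *OsNAC10*. The sign turned without OsNAC14OX replicate 1 for *OsNAC6* (-0.25) and *OsNAC10* (0.10), and without OsNAC14OX replicate 2 for *OsNAC9* (1.43). The number of member transcripts called was 0, against 1 without OsNAC14OX replicate 2 and 1 with an unadjusted p in place of the adjusted one, in both cases *OsNAC5*. *OsNAC10* was not tested with a filter of at least 5 FPKM.

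Over the whole table, 168 transcripts were called, against 109 with no filter, 469 with an unadjusted p, 59 without OsNAC14OX replicate 1, 772 without OsNAC14OX replicate 2, and 0 without either NT library (range 0 to 772). With all libraries, 0 genes were called in each list. Without OsNAC14OX replicate 2, called genes appeared in every list but that of ABA synthesis and breakdown, while the count over the whole table rose as well. That fit left 1 library in the group, so the list counts are no result about the lists. Without OsNAC14OX replicate 1, only the list of dehydration markers held a called gene, and that fit has the same limit. With an unadjusted p, 1 of 12 dehydration marker genes, 2 of 7 genes downstream of SNAC factors and 1 of 47 NAC family genes were called. That stands beside 469 of 30251 transcripts over the whole table. With replicate number as a block, 0 transcripts were called and the adjusted p of *OsNAC5* was 0.340 (limma). The numbers do not pair the libraries by any label, and the correlation of replicate differences between the groups was 0.004. Depth is unknown, so the counting error of low values, such as those of *OsNAC10* and of the short *OsNAC5* transcript, could not be estimated. An alternative added after seeing the data, the plain FPKM ratio, moved the OsNAC14OX replicate difference of *OsNAC10* to -0.79.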
